A study of Mus musculus with 29 samples.

Results

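T cell and natural killer (NK) cell markers were examined in bulk liver RNA as a group of 10 genes, out of the 22187 gene IDs in the deposited table. The members were chosen by name: the T cell receptor chains Cd3d, Cd3e and Cd3g, the coreceptors Cd4, Cd8a and Cd8b1, the cytotoxic granule genes Nkg7, Gzma and Prf1, and the NK receptor Ncr1. All 10 had a row. Their levels were low throughout, and 123 of their 290 values (42.4%) lay at or under 3 sequenced counts. Perforin (Prf1) was higher in tumours than in non-tumour liver. Cd3e and Cd8b1 were also called higher in tumours, less firmly. In that comparison 63.6% of all genes tested were called, a larger share than of the members, and 36.6% were called higher. No member was called between genotypes or between diets, where 0% to 1.61% of all genes were called.

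Gene expression was measured by polyA-selected RNA sequencing in 29 liver libraries of C57BL/6 mice, all of which had received the liver carcinogen diethylnitrosamine (DEN, 25 mg/kg, at 2 weeks of age) and were then fed for 18 weeks. Tumours gave 13 libraries: 4 labelled IL17RA-/- and 3 WT on alcohol (HFD_alcohol in the labels), and 3 labelled IL17RA-/- and 3 WT on HFD. Non-tumour liver gave 16 libraries: 5 labelled IL17RA-/- and 5 WT on alcohol, and 3 labelled IL17RA-/- and 3 WT on HFD. The series text describes liquid ethanol feeding or pair-feeding for the treatments that the sample labels call HFD_alcohol and HFD. No group without DEN is among the libraries, and no label ties libraries to animals. A p-value therefore reflects how much these libraries vary, which may be technical. Fewer cells of a type and less RNA per cell cannot be told apart in bulk liver.

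T cells recognise antigen through a receptor whose signal is carried into the cell by the invariant CD3 chains, while CD4 and CD8 bind MHC class II and class I molecules on the presenting cell. Cytotoxic T cells and NK cells kill by releasing granules in which perforin forms membrane pores and granzymes enter through them. The normal liver is rich in NK cells and other innate lymphocytes, which are far outnumbered by hepatocytes.

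Cd3d and Cd3g lie head to head on chromosome 9 (GRCm38), with 1354 bases between their annotated starts. Cd3g runs from 44969572 to 44980431 on the minus strand and Cd3d from 44981786 to 44987339 on the plus strand. Cd3e (44998740 to 45009627, minus strand) is their neighbour, and Prf1 lies on chromosome 10 (61297833 to 61304680, plus strand). The 250 bases before the start of these 4 genes are shown because the CD3 chains are produced as 1 complex and because Prf1 gave the firmest difference between the tissues. The sequences are RefSeq's for GRCm38.p6, written 5′ to 3′ on the gene's strand, and the capitals mark matches on either strand to a RUNX motif (TGTGGT), a T-box motif (AGGTGT) or an ETS motif (AGGAAG).
Cd3d: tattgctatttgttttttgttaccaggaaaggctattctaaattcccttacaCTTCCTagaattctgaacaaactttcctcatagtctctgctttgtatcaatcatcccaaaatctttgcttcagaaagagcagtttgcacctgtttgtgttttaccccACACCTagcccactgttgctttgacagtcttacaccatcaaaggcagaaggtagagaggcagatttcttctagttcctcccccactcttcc
Cd3g: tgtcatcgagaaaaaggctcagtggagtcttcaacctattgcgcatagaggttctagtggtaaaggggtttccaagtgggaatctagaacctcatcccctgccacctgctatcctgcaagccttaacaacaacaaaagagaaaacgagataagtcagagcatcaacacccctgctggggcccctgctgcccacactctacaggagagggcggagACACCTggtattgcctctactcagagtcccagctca
Cd3e: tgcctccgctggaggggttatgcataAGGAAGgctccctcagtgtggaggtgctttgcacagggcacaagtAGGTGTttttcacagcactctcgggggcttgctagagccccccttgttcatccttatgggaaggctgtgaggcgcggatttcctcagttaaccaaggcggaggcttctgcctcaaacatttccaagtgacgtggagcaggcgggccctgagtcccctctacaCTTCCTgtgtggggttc
Prf1: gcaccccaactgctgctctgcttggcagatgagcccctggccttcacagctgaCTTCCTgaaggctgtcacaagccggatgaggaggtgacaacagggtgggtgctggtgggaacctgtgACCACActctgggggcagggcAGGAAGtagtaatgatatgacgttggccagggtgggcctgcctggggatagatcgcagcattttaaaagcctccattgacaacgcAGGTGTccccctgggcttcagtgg

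The T-box letters were found 91 bases before the RefSeq start of Cd3d, 36 before that of Cd3g, 179 before that of Cd3e and 24 before that of Prf1. The windows of Cd3e (45009612 to 45009861) and Prf1 (61297586 to 61297835) reach slightly into the annotated genes given above. Of these 4 windows only that of Prf1 held the RUNX letters, 130 bases before the start. Nkg7 and Gzma, which are not printed, also held both the RUNX and the T-box letters. Of the other members searched, Ncr1 held the RUNX but not the T-box letters, and Cd8a held neither. Of all 32851 promoters searched over the same length, 14.0% held the RUNX, 11.8% the T-box and 29.5% the ETS letters. A match is a string of letters and not a bound site. RefSeq promoters were matched for 8 of the 10 members; Cd4 and Cd8b1 were left out of this search.

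The unit throughout is CPM, counts scaled to the same total in each library. The files gave a depth of 3213697 to 9660586 counts, at which the floor of 3 counts stood for 0.311 to 0.934 CPM. Of the 290 member values, 18 (6.21%) were at 0, 167 lay above the floor, and 103 reached 1 CPM. No member was above the floor in all libraries. Summed over the 29 libraries the 10 genes had 2245 counts, and the highest single value was 106 counts, for Cd8a. All members therefore lie near the counting floor in some libraries, and Cd3d and Ncr1 do so in most.

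Cd4 and Prf1 were above the floor in 12 of 13 tumours each, but in 14 and 4 of 16 non-tumour libraries. Cd8a was above it in 11 tumours and 14 non-tumour libraries. Cd3e passed it in 10 tumours and 5 non-tumour libraries, Cd3g in 10 and 9, and Cd8b1 in 9 and 6. Nkg7 and Gzma each passed it in 9 tumours and 11 non-tumour libraries. The thinnest members were Cd3d, in 3 and 3, and Ncr1, in 1 tumour and 4 non-tumour libraries. In the plot of detection, Cd3e, Cd8b1 and Prf1 show the widest gaps between the tissues.

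**Figure D1:**
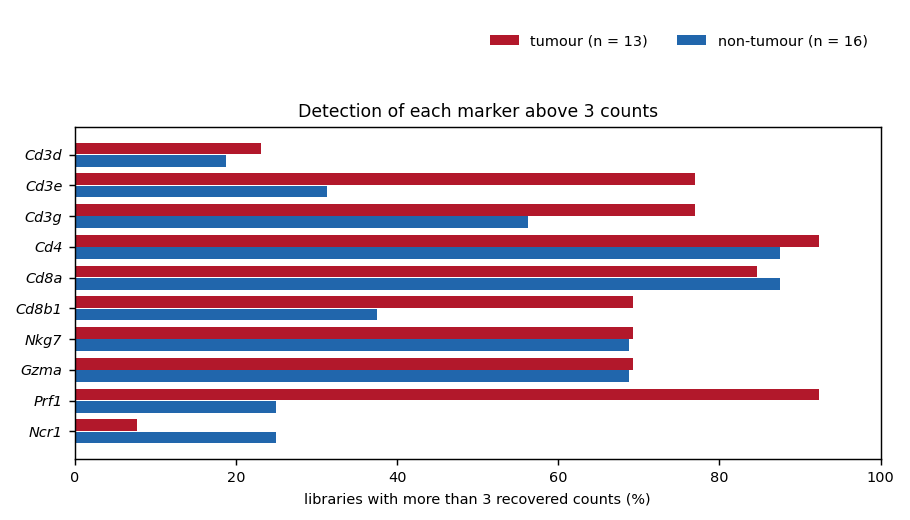
Share of libraries (horizontal axis, %) in which each member (vertical axis) had more than 3 recovered counts, for 13 tumour (red, upper bar) and 16 non-tumour (blue, lower bar) libraries. Prf1 passed in 12 tumours and 4 non-tumour libraries, and Cd3d in 3 of each.

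Set per kilobase of annotated exon, so that levels can be compared between genes, Nkg7 had the highest mean over the 29 libraries, at 1.49 CPM per kilobase, and Gzma came next at 0.871. Cd4 (0.579), Cd8b1 (0.569) and Cd8a (0.566) were close together, followed by Cd3g (0.360), Prf1 (0.343), Cd3d (0.283), Cd3e (0.219) and Ncr1 (0.214). The libraries' values of each neighbouring pair in this order overlapped. The pan-leukocyte phosphatase Ptprc (CD45) stood at 3.22 CPM per kilobase. These lengths are the union of exons in GENCODE M21, not the lengths the counting used.

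A few libraries carried much of the signal. WT HFD tumour replicate 5 was the highest of all 29 for 7 of the 10 members, and WT HFD non-tumour replicate 1 was the highest non-tumour library for 9 of 10. The same libraries were highest in Ptprc in their tissue, at 187 CPM in that tumour and 126 CPM in that non-tumour liver. WT HFD non-tumour replicate 1 and labelled IL17RA-/- HFD non-tumour replicate 3 also held the tumour marker Afp at 141 and 155 CPM, where tumours had 105 to 559 CPM and the other non-tumour libraries 0.873 to 32.4 CPM. Results are therefore also given without 4 libraries doubted after seeing the data, by no set criterion: these last 2, WT HFD tumour replicate 4 and labelled IL17RA-/- alcohol tumour replicate 5. Il17ra, the targeted gene, passed no test as lower under the IL17RA-/- label, and in HFD tumours it read 54.4 to 62.9 CPM there and 22.9 to 48.5 CPM in WT. In alcohol tumours it read 42.4 to 55.8 CPM under that label and 32.3 to 33.8 CPM in WT. The genotypes overlapped in non-tumour liver. The genotype is given as labelled. The part of any of these values in the results below was not tested.

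Among the CD3 chains, which carry the signal of the T cell receptor, Cd3e separated the tissues best. Its level in tumours was 1.81, 0.161, 0.374 and 2.18 CPM in the labelled IL17RA-/- alcohol group and 0.812, 1.08 and 0.455 CPM in WT on alcohol. On HFD, tumours had 0.831, 1.12 and 1.23 CPM in the labelled IL17RA-/- group and 1.04, 5.44 and 1.09 CPM in WT. Most tumours lay near 1 CPM, and WT HFD replicate 5 was alone above 3.
In non-tumour liver Cd3e was 0.160, 0.279, 0.148, 0.281 and 1.55 CPM in the labelled IL17RA-/- alcohol group and 0.542, 0.153, 0, 0.283 and 0.131 CPM in WT on alcohol. On HFD it was 1.09, 0.645 and 0.104 CPM in the labelled IL17RA-/- group and 1.68, 0.511 and 0.787 CPM in WT. Most non-tumour libraries were under 1 CPM, and the tissues overlapped. GENCODE M21 annotates antisense genes over Cd3e, and the strand setting of the counting is not given in the sources used here, so reads of these genes cannot be told apart from those of Cd3e.

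Cd3g, a further CD3 chain, ranged from 0.125 to 6.65 CPM in tumours (median 0.930) and from 0 to 2.66 CPM in non-tumour liver (median 0.651). WT HFD tumours had 0.928, 6.65 and 3.82 CPM, of which the last 2 were the highest of all libraries and the first lay near the tumour median. Cd3d had 65 counts over all tumours and 40 over all non-tumour libraries. Its median was 0.409 CPM in tumours and 0.369 CPM in non-tumour liver, which a single count more or less would move.

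Cd8b1, the beta chain of CD8 that marks conventional cytotoxic T cells, was highest in WT HFD tumours. In tumours it was 1.15, 0.323, 0.623 and 0.311 CPM in the labelled IL17RA-/- alcohol group, 0.812, 1.08 and 0.152 CPM in WT on alcohol, 0.139, 1.12 and 1.84 CPM in the labelled IL17RA-/- HFD group, and 0.464, 5.59 and 3.60 CPM in WT on HFD. The last 2 values exceed those of all other libraries.
In non-tumour liver it was 0, 0.418, 0.742, 0 and 0.518 CPM in the labelled IL17RA-/- alcohol group, 0.542, 0.306, 0, 0.424 and 0.656 CPM in WT on alcohol, 0.982, 0.215 and 0.311 CPM in the labelled IL17RA-/- HFD group, and 1.26, 0.682 and 0.225 CPM in WT on HFD. WT HFD replicate 1 was the 1 non-tumour library above 1 CPM.

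Cd8a, the CD8 alpha chain, which some dendritic cells also carry, reached 16.0 CPM in WT HFD tumour replicate 5, with a 95% Poisson interval of 13.1 to 19.4 CPM that covers counting error only. The other WT HFD tumours had 1.16 and 5.34 CPM. Over all tumours the median was 1.16 CPM, and over non-tumour liver it was 1.13 CPM. Cd4 was above the floor in more libraries than any other member, with 0.484 to 6.50 CPM in tumours (median 2.47) and 0 to 5.60 CPM in non-tumour liver (median 1.71). WT HFD tumours had 3.60, 6.50 and 6.11 CPM of Cd4.

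Perforin (Prf1), which forms the pore through which granzymes act, was the member whose tissues differed most. Tumours had 1.64, 2.42, 1.12 and 0.622 CPM in the labelled IL17RA-/- alcohol group, 1.62, 3.56 and 0.758 CPM in WT on alcohol, 0.693, 0.744 and 1.23 CPM in the labelled IL17RA-/- HFD group, and 0.928, 1.51 and 1.64 CPM in WT on HFD. The highest, WT alcohol replicate 5, rested on 23 counts.
Non-tumour liver had 0.160, 0.139, 0.445, 0.422 and 0.690 CPM in the labelled IL17RA-/- alcohol group, 0.813, 0.153, 0.474, 0.283 and 0.525 CPM in WT on alcohol, 0.327, 0.645 and 0.311 CPM in the labelled IL17RA-/- HFD group, and 1.12, 0.341 and 0.337 CPM in WT on HFD. WT HFD replicate 1 was again the 1 library above 1 CPM. Summed, Prf1 had 124 counts in tumours and 50 in non-tumour liver.

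Granzyme A (Gzma), a granule protease of NK and cytotoxic T cells, did not share this pattern. It was 0.908 ± 0.575 CPM in tumours (SD, n = 13) and 0.850 ± 0.703 CPM in non-tumour liver (SD, n = 16), and its highest library was WT HFD non-tumour replicate 1 at 3.22 CPM. Nkg7, a granule membrane protein of the same cells, ranged from 0 to 7.56 CPM in tumours (median 1.12) and from 0.158 to 3.78 CPM in non-tumour liver (median 0.678). WT HFD tumour replicates 5 and 6 were the highest tumours for Nkg7, at 7.56 and 3.71 CPM.

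Ncr1 encodes NKp46, the activating receptor that defines NK cells and related innate lymphocytes. It had 26 counts in all tumours and 37 in all non-tumour libraries. The highest tumour was 0.934 CPM and the highest non-tumour library 1.01 CPM. Its mean was 0.327 ± 0.259 CPM in tumours (SD, n = 13) and 0.333 ± 0.320 CPM in non-tumour liver (SD, n = 16), values that lie at the floor.

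**Figure D2:**
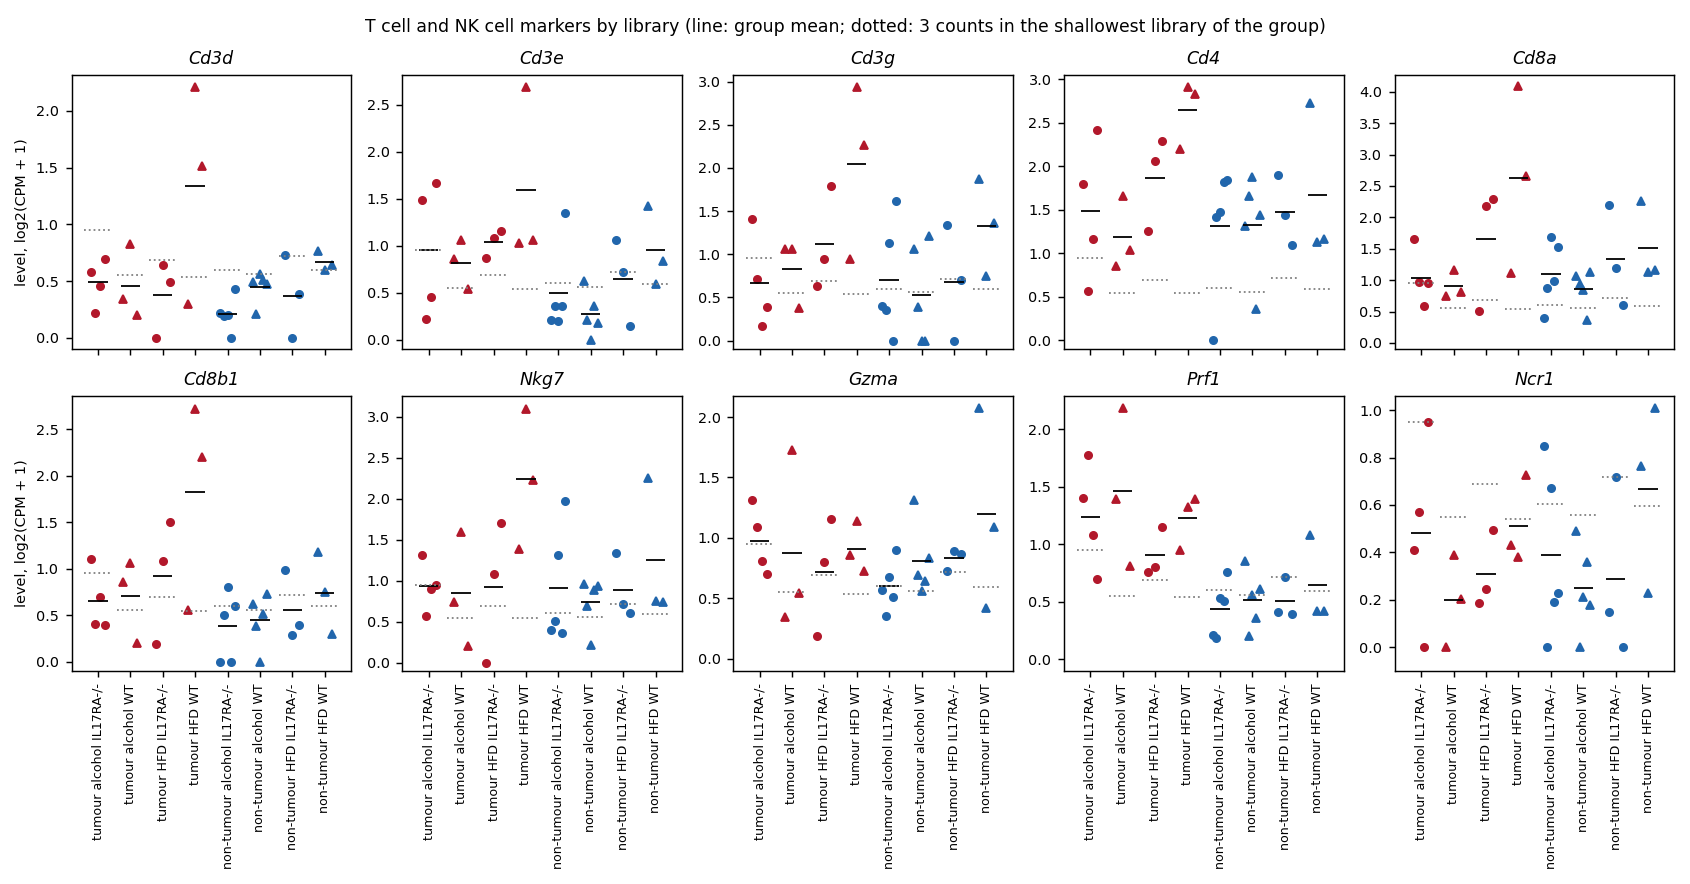
Level of each member (vertical axes, log2(CPM + 1), scaled separately) in every library by group, with tumours in red and non-tumour liver in blue, circles for labelled IL17RA-/- and triangles for WT. Lines are group means and dotted lines 3 counts in the shallowest library of the group; WT HFD tumours hold the highest point for 7 of the 10 members.

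Tumour was first compared with non-tumour liver over all 4 pairs of groups, weighted equally, with limma on log2(CPM + 1). Of the 8 members tested, 3 rose in tumours and 0 fell; 63.6% of all 13586 genes tested were called, and 36.6% were called higher. The members' share of calls thus lay below that of all genes. The median difference was 0.36 on the log2 scale over the 8 members and 0.09 over all genes. Cd3d and Ncr1 were below the filter of 1 CPM in 3 libraries. Fitted without a filter, they differed by 0.24 (adjusted p = 0.139) and -0.02 (adjusted p = 0.876).

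Prf1 rose by 0.68 ± 0.14 on the log2(CPM + 1) scale (SE, adjusted p = 0.000119). Its mean level was 1.42 ± 0.824 CPM in tumours (SD, n = 13) and 0.449 ± 0.263 CPM in non-tumour liver (SD, n = 16), 3.17 times as high. It passed in all 34 alternatives tried, with an adjusted p of 1.97e-05 to 0.000365. No replicate block was among them.
Cd3e rose by 0.51 ± 0.19 (adjusted p = 0.0204), with 1.36 ± 1.34 CPM in tumours and 0.522 ± 0.516 CPM in non-tumour liver (SD, n = 13 and 16). Cd8b1 rose by 0.50 ± 0.19 (adjusted p = 0.0268), with 1.32 ± 1.58 CPM in tumours and 0.455 ± 0.355 CPM in non-tumour liver (SD, n = 13 and 16). Both calls were fragile. Without WT HFD tumour replicate 5 they were lost, at 0.37 (adjusted p = 0.0551) for Cd3e and adjusted p = 0.0712 for Cd8b1. Over 34 alternatives the adjusted p was 0.00611 to 0.0551 for Cd3e and 0.000912 to 0.0926 for Cd8b1, which passed in 33 and 27 of them. The Cd8b1 call was also lost without WT HFD tumour replicate 6 (adjusted p = 0.0521), WT alcohol tumour replicate 5 (0.0523), WT HFD non-tumour replicate 3 (0.0569) or labelled IL17RA-/- HFD tumour replicate 6 (0.062).

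The other tested members did not pass. Cd3g differed by 0.36 (adjusted p = 0.174), Cd4 by 0.35 (adjusted p = 0.194), Cd8a by 0.35 (adjusted p = 0.231) and Nkg7 by 0.29 (adjusted p = 0.271). Gzma differed by 0.01, with a 95% interval of -0.32 to 0.34. Without the 4 doubted libraries 6 members were called higher, Cd3g, Cd4 and Cd8a being added at adjusted p = 0.0481, 0.0366 and 0.0447. That fit drops WT HFD tumour replicate 4, where the members summed to 11.1 CPM, against 54.4 and 28.5 CPM in its group. It also drops the highest non-tumour library, WT HFD replicate 1 (24.5 CPM). Dropping both widens the difference, while labelled IL17RA-/- HFD non-tumour replicate 3 was low in its group (4.66 CPM). The added calls are therefore no separate support. Over all alternatives the adjusted p was 0.0471 to 0.35 for Cd3g, 0.0366 to 0.316 for Cd4 and 0.0382 to 0.536 for Cd8a.

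The tissues were then compared within each diet and genotype. On alcohol, Prf1 was the 1 member called of 8 in either genotype. Among labelled IL17RA-/- it rose by 0.80 ± 0.24 (SE, adjusted p = 0.0102), where 39.9% of all genes were called. In WT it rose by 0.95 ± 0.26 (adjusted p = 0.0062), where 35.7% were called. The call among labelled IL17RA-/- was lost without tumour replicate 5 (0.62, adjusted p = 0.0567; range over alternatives 0.0036 to 0.234). That in WT was lost without tumour replicate 5 of its group (0.58, adjusted p = 0.103; range 0.00113 to 0.103).

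On HFD no member passed in limma in either genotype. Among labelled IL17RA-/-, 0 of 8 were called, also at an unadjusted p under 0.05 and by limma-voom, where 40.4% of all genes were called and 48.4% passed unadjusted. The Prf1 values of the tissues did not overlap there (0.693 to 1.23 CPM in tumours, 0.311 to 0.645 CPM in non-tumour liver), as for 54.7% of all genes, and the difference was 0.40 ± 0.29.
In WT on HFD 0 of 8 were called, 1 at an unadjusted p under 0.05 and 0 by limma-voom, where 15.3% of all genes were called and 28.7% passed unadjusted. The median difference was the highest of the 4 groups, 0.85 over the members and 0.07 over all genes. Cd8b1 differed by 1.08 ± 0.41 (adjusted p = 0.0757; 0.00152 to 0.421 over alternatives) and Cd8a by 1.10 ± 0.55 (adjusted p = 0.184; 0.00559 to 0.765). These results hung on single libraries. Cd8a and Cd8b1 were called without tumour replicate 4, Cd4 and Nkg7 without non-tumour replicate 1, and all 4 of these genes without the doubted libraries. The doubted libraries include both of these replicates. By the members' sum they were the lowest tumour and the highest non-tumour library of WT on HFD, so dropping them widens the difference.

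Labelled IL17RA-/- was compared with WT next. No member was called in any of the 4 comparisons, nor by limma-voom. In non-tumour liver on alcohol 0 of 6 tested members passed at an unadjusted p under 0.05, as did 2.57% of all genes, and 0% of all genes were called. On HFD it was again 0 of 6 members, 3.59% of all genes unadjusted and 0% called. In alcohol tumours 0 of 8 members and 1.97% of all genes passed unadjusted, and 0% of all genes were called. Cd4 averaged 2.14 CPM in labelled IL17RA-/- and 1.35 CPM in WT there, and Prf1 averaged 1.45 CPM in labelled IL17RA-/- and 1.98 CPM in WT.

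In HFD tumours 0 of 8 members were called and 1 passed at an unadjusted p under 0.05, where 1.61% of all genes were called and 22.5% passed unadjusted. All 8 differences were negative, with a median of -0.84 against -0.09 over all genes. Nkg7, at 0, 1.12 and 2.25 CPM in labelled IL17RA-/- and 1.62, 7.56 and 3.71 CPM in WT, differed by -1.31 ± 0.50 (SE, unadjusted p = 0.0206, adjusted p = 0.147). Cd8a was 0.416, 3.53 and 3.88 CPM in labelled IL17RA-/- and 1.16, 16.0 and 5.34 CPM in WT, a difference of -0.97 ± 0.63. In each pair of sets the values overlapped. Of the other lymphocyte genes listed, Serpinb9, an inhibitor of granzyme B, was the 1 called, at 13.1 ± 4.47 CPM in labelled IL17RA-/- and 35.8 ± 11.6 CPM in WT (SD, n = 3 each; -1.38, adjusted p = 0.0458). That call was lost in 8 of 13 alternatives (adjusted p 0.0242 to 0.187 over all 13), among them leaving out labelled IL17RA-/- replicate 4 (0.154), 5 (0.118) or 6 (0.138) or WT replicate 4 (0.153), and the replicate block (0.0689). Ptprc was 35.3 to 60.4 CPM in labelled IL17RA-/- and 73.9 to 187 CPM in WT.

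Alcohol was compared with HFD in the same way, and again no member was called in limma or limma-voom. In labelled IL17RA-/- non-tumour liver 0 of 6 passed at an unadjusted p under 0.05, as did 5.81% of all genes, of which 0% were called. In labelled IL17RA-/- tumours it was 0 of 8 members and 2.21% of all genes, again with 0% called. In WT non-tumour liver 1 of 6 did, Cd3e, at 0.222 CPM on alcohol and 0.993 CPM on HFD (-0.68 ± 0.29, unadjusted p = 0.0344, adjusted p = 0.875). There 4.22% of all genes passed unadjusted and 0% were called. Cd8a did not overlap there, with 0.283 to 1.18 CPM on alcohol and 1.19 to 3.78 CPM on HFD, as for 3.15% of all genes tested. Cd3d was too low to be tested and is not among the genes of that share. Its CPM did not overlap either, with 0.153 to 0.474 CPM on alcohol and 0.511 to 0.700 CPM on HFD. The nearest values, 0.474 and 0.511 CPM, each stood for 3 counts in libraries of unlike depth, so in counts the diets met.

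WT tumours gave the widest contrast of diet. Of 8 members 0 were called, 5 passed at an unadjusted p under 0.05, while 16% of all genes passed unadjusted and 0.00754% were called. The median difference was -1.17 over the members and -0.17 over all genes, and rescaling moved these to -1.09 and -0.01. Cd4 had 0.812, 2.16 and 1.06 CPM on alcohol and 3.60, 6.50 and 6.11 CPM on HFD, a difference of -1.46 ± 0.44 (unadjusted p = 0.00546, adjusted p = 0.2). The 2 sets did not overlap, which held for 15.2% of all genes. Cd8a was 0.676, 1.24 and 0.758 CPM on alcohol and 1.16, 16.0 and 5.34 CPM on HFD (-1.72 ± 0.63, adjusted p = 0.229). Nkg7 (-1.40), Cd3g (-1.22) and Cd8b1 (-1.12) also passed unadjusted. Prf1, by contrast, differed by 0.24, with 1.98 CPM on alcohol and 1.36 CPM on HFD, and Gzma by -0.04. Ptprc was 25.7 to 77.0 CPM on alcohol and 73.9 to 187 CPM on HFD. The WT HFD tumours enter this comparison and that of genotype, so the 2 are not independent.

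**Figure D3:**
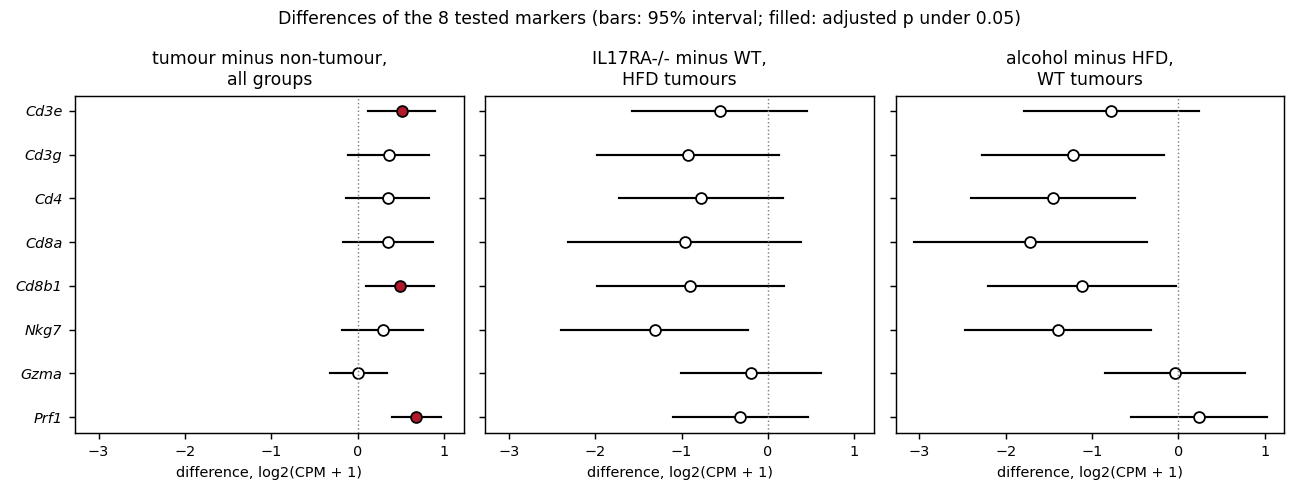
Differences on the log2(CPM + 1) scale (horizontal axis) with 95% intervals for the 8 tested members, for tumour minus non-tumour liver (left), labelled IL17RA-/- minus WT in HFD tumours (middle) and alcohol minus HFD in WT tumours (right). Filled points passed an adjusted p under 0.05, which only Cd3e, Cd8b1 and Prf1 did, in the left panel; Gzma lies near 0 in the left and right panels.

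The interactions tested whether these differences themselves differed, and 0 members were called in any of the 4, at an unadjusted p under 0.05 or by limma-voom either. Over all genes the share called was 0% for genotype by diet in non-tumour liver, 0% in tumours, 0% for tissue by genotype on alcohol and 0.00736% on HFD. At an unadjusted p under 0.05 the shares of all genes were 4.12%, 13.2%, 2.49% and 14.9% in that order. In tumours the interaction of genotype and diet was 1.40 ± 0.69 for Nkg7 (adjusted p = 0.393) and 1.08 ± 0.60 for Cd4 (adjusted p = 0.447). For Prf1 it was 0.10 ± 0.50. The tissue by genotype interaction of Prf1 was -0.15 ± 0.36 on alcohol and -0.18 ± 0.41 on HFD, so its rise in tumours was not shown to differ between genotypes.

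Across the 29 libraries the members varied together to different degrees, described here by Spearman's rho over points that share tissue, diet and depth. Cd8b1 and Nkg7 had the highest rho, 0.86, followed by Nkg7 with Cd3g (0.78) and with Cd8a (0.78), and Cd3g with Cd8b1 (0.77) and with Cd8a (0.76). Cd8a and Cd8b1 had 0.72. The head-to-head genes Cd3d and Cd3g had 0.59, at the low counts given above. Prf1 had a median rho of 0.46 with the other members and 0.24 with Ptprc, the lowest with Ptprc of the 10, while Nkg7 had 0.77 with Ptprc. Ncr1 had the lowest median with the other members, 0.33. Ptprc itself was not called between the tissues (0.19, adjusted p = 0.537), at 63.9 ± 41.8 CPM in tumours and 55.1 ± 28.96 CPM in non-tumour liver (SD, n = 13 and 16).

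**Figure D4:**
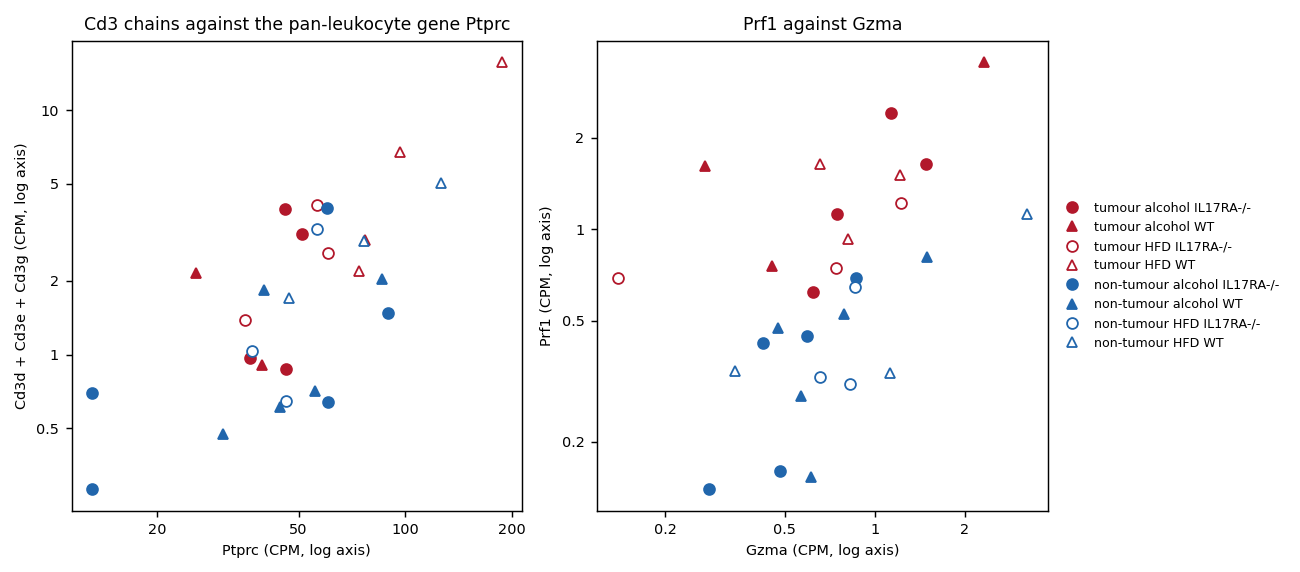
Left, the summed level of Cd3d, Cd3e and Cd3g against Ptprc, and right, Prf1 against Gzma, in CPM on log axes, 1 point per library (tumour red, non-tumour blue; alcohol filled, HFD open; circles labelled IL17RA-/-, triangles WT). WT HFD tumour replicate 5 stands at the upper right of the left panel at 187 CPM of Ptprc; in the right panel most tumours lie above most non-tumour libraries at like Gzma.

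Set against Ptprc, the members summed to 24.6 ± 8.22 CPM per 100 CPM of Ptprc in WT HFD tumours (SD, n = 3). The other tumour groups averaged 19.6 to 22.4. Non-tumour groups averaged 22.1 ± 14.7 in labelled IL17RA-/- and 13.1 ± 5.16 in WT on alcohol (SD, n = 5 each). On HFD they averaged 16.8 ± 5.77 in labelled IL17RA-/- and 14.8 ± 4.19 in WT (SD, n = 3 each). In the labelled IL17RA-/- alcohol group, replicates 2 and 4 read 34.0 and 38.7, each at 13.1 CPM of Ptprc. Its other libraries read 4.50 to 22.7, at 60.0 to 89.4 CPM of Ptprc. The WT HFD tumours had the highest mean ratio, but their libraries, at 15.1 to 29.5, lay within the 4.50 to 38.7 of the libraries of the other groups. Both ends of that range came from labelled IL17RA-/- non-tumour liver on alcohol, and the remaining groups spanned 6.58 to 33.3. The plain sum of the WT HFD tumours, 11.1 to 54.4 CPM, had the highest mean of the 8 groups.

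The genes whose levels most resembled the mean profile of the CD3 chains were Cxcl9 (rho 0.87), Ptpn7 (0.86), Tapbpl (0.86), Slc29a3 (0.85) and Ciita (0.84), over 29 libraries. Cxcl9 encodes an interferon-induced chemokine that attracts T cells, Ptpn7 a phosphatase of blood cells and Ciita the activator of MHC class II genes. Cxcl9 reached its highest level, 309.6 CPM, in WT HFD tumour replicate 5. Among the genes nearest to the granule genes were Tapbpl (0.88), Igtp (0.86), Gbp9 (0.84) and Ctbp1 (0.84), of which Igtp and Gbp9 belong to the interferon response. Of the 12728 genes ranked, 15.7% had a rho over 0.5 with the CD3 profile and 17.3% with the granule profile.

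Other T cell genes gave a mixed account of the tissues. Of 16 tested genes of T cell receptor signalling and costimulation, 5 rose and 2 fell in tumours over all groups, fewer than the 63.6% of all genes. Cd27, a costimulatory receptor, was 1.27 ± 0.665 CPM in tumours and 0.328 ± 0.278 CPM in non-tumour liver (0.75, adjusted p = 4.89e-05). Themis, a regulator of receptor signalling in developing T cells, fell to 5.42 ± 5.02 CPM in tumours, against 28.96 ± 19.1 CPM in non-tumour liver (-2.33, adjusted p = 1.12e-05). Its non-tumour level was far above that of the CD3 chains in the same libraries. Icos, an inducible costimulator, also fell (-0.55, adjusted p = 0.017), but not without the 4 doubted libraries (-0.35, adjusted p = 0.115).

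Of 15 tested genes of NK and cytotoxic cells, 2 rose and 1 fell, fewer than the 63.6% of all genes called. Klrd1 (CD94) rose by 0.42 (adjusted p = 0.0139). Cd244a, an NK receptor, rose by 0.43 (adjusted p = 0.0478), a call lost in 22 of 34 alternatives, with an adjusted p of 0.0162 to 0.13. Tyrobp, an adaptor that macrophages also use, fell (-0.70, adjusted p = 0.0294), a call lost in 4 of 34, with an adjusted p of 0.00342 to 0.129: without the doubted libraries, WT alcohol tumour replicate 4, WT HFD tumour replicate 4 or WT HFD non-tumour replicate 1. Klrb1c (NK1.1), a defining NK marker, was listed at 0 in 5 of 13 tumours and 4 of 16 non-tumour libraries.
Of 8 lymphocyte transcription factors, 5 rose and 1 fell, where 63.6% of all genes were called and 36.6% were called higher. Tcf7, a factor of naive and memory-like T cells, rose to 5.68 ± 2.30 CPM in tumours, against 2.13 ± 0.747 CPM in non-tumour liver (1.03, adjusted p = 3.16e-06). Id2 (0.90), which liver cells other than lymphocytes also express, rose too. Tbx21, Eomes and Foxp3, which define T helper, cytotoxic and regulatory cells, were too low to be tested.

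Ltb, the lymphotoxin beta chain, rose by 1.55 (adjusted p = 5.21e-05), 1 of 8 tested cytokines and receptors to do so, and Il12rb1 fell (-0.54, adjusted p = 0.00248). Of 6 inhibitory receptors 2 rose, Havcr2 (TIM-3; 0.77, adjusted p = 0.00265) and Tigit (0.41, adjusted p = 0.0251). The Tigit call was lost without WT alcohol tumour replicate 5 (adjusted p = 0.0559) or labelled IL17RA-/- HFD non-tumour replicate 2 (adjusted p = 0.0534). Lag3, a further one, had 1.02 ± 0.909 CPM in tumours and 0.653 ± 0.461 CPM in non-tumour liver and did not pass. Of 11 chemokines and receptors, Cxcl9 rose (1.05, adjusted p = 0.00901) and S1pr1, the receptor for lymphocyte exit from tissue, fell (-0.68, adjusted p = 0.000225). The shares called in these lists of cytokines, inhibitory receptors and chemokines lay below the 63.6% of all genes.
Markers of other cells were counted in the same comparison, where 63.6% of all genes were called. Of 10 Kupffer cell markers 9 fell, of 9 dendritic cell markers 5 rose and 1 fell, of 8 B and plasma cell markers 2 rose, and of 10 pan-leukocyte genes 0 were called. The Kupffer share lay above that of all genes, the dendritic share near it, and the B cell and pan-leukocyte shares below it. The part of these cells in the members' differences was not tested.

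Cd4 lies 4.38 Mb from Il17ra on chromosome 6 and its neighbour Lag3 4.42 Mb, while Cd8a and Cd8b1 lie 49.08 and 49.13 Mb away. Neither Cd4 nor Cd8a was called between genotypes in any group. Cd4 differed by -0.02 in non-tumour liver on alcohol, -0.19 on HFD, 0.30 in alcohol tumours and -0.78 in HFD tumours.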

How the data were processed

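The values for all 29 libraries come from a single CPM table made by the authors, in which every column has the same total. The labels' protocols give column-purified RNA and polyA-selected stranded libraries. The submitters' processing notes name STAR 2.5.1a, RSEM 1.3.0 and the build GRCm38. Which annotation and strand setting were used is not given in the sources used here. Symbols, positions and exon lengths came from GENCODE M21.

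Counts were recovered from the smallest step of each column: 82.9% to 85.8% of nonzero values were whole within 0.002 counts and all were whole hundredths, as for expected counts. Depth was 3213697 to 9660586 counts; 3 counts, the floor, cover counting error only.

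Tests used limma 3.58.1 in R 4.3.3 with a variance trend on log2(CPM + 1), a scale that understates the change of low genes. A gene entered the tests with at least 1 CPM in 3 libraries of its fit. A call was a two-sided p under 0.05 after Benjamini-Hochberg adjustment over all genes tested. Tissues were compared on all 29 libraries, genotypes and diets within 13 tumour or 16 non-tumour libraries. The method was tried on simulated data in which only genes with a mean above that of every member were changed. Recovery of changes at the members' levels was therefore not tested. All 10 members are named, of each other list up to 3 called genes with the largest change, plus Lag3, Il17ra, a few genes chosen after their values were seen (Ptprc, Afp, Klrb1c, Tbx21, Eomes and Foxp3), and the 5 genes nearest each of 2 profiles by Spearman's rho. Some genes that this rule would name are not reported here. The members and lists were chosen with earlier results of these data known.

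Every result was refitted without the filter, with 0.1 in place of 1 as pseudocount, and after median-ratio rescaling. It was also refitted by limma-voom on the recovered counts and without each library in turn. Comparisons of a pair of groups were refitted on those groups alone. The replicate number was added as a block except in the tissue comparisons over all groups and on HFD, which had no blocked fit. A fit without 4 doubted libraries was added after seeing the data. In 1 comparison, alcohol against HFD in WT non-tumour liver, all 3 same-numbered pairs were best matches, with correlations of 0.34, 0.27 and 0.13. This pairing comes from the data, not from the labels, and the blocked fit again called 0 members. In the other comparisons checked, some or none of the pairs were best matches. The highest correlation was 0.41, for replicate 1 of labelled IL17RA-/- against WT in alcohol non-tumour liver.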

Additional observations from a re-analysis of the deposited data

Results flagged for a closer look

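Of the 30 sets of 4 or 5 libraries examined, 1 for each member and group of that size, 2 held a library far from the others; chance gives about 1 in 20. Cd3e in labelled IL17RA-/- alcohol non-tumour replicate 5 was 1.55 CPM, from 9 counts, while the other 4 libraries of the group had 0.148 to 0.281 CPM. Cd3d in WT alcohol non-tumour replicate 2 was 0.153 CPM, from 1 count, while the others had 0.393 to 0.474 CPM, from 3 counts each. All 5 of these values lay at or under the floor.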

How the results depend on the processing

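Member counts called under the alternatives were compared with the reported ones in 17 comparisons. Tumour against non-tumour liver over all groups (3 called) gave 1 to 5 when 1 library was left out, with 1 without WT HFD tumour replicate 5 and 5 without WT HFD tumour replicate 4, and 6 without the 4 doubted libraries. Cd8b1 was also lost with a pseudocount of 0.1 (adjusted p = 0.0584) and in limma-voom (adjusted p = 0.0926), out of a range of 0.000912 to 0.0926. Among labelled IL17RA-/- on alcohol (1 called, Prf1) the count was 0 to 1 with 1 library left out, and 0 without the doubted libraries and under the replicate block, where Prf1 differed by 0.96 (adjusted p = 0.234). In WT on alcohol (1 called) it was 0 to 1 with 1 library left out, and 0 with the compared groups alone and under the replicate block, where Prf1 fell below the filter. In WT on HFD (0 called) it was 0 to 2 with 1 library left out and 4 without the doubted libraries. The doubted set drops the WT HFD tumour lowest in the members' sum and the non-tumour library highest in it, as given above. The cause was not tested beyond the fewer libraries and genes these fits hold. The other 13 comparisons gave 0 members in each setting run. In all, 2029 member values kept their side of the threshold, 13 newly passed, 12 no longer passed and 0 reversed. Apart from the comparison named with the methods, replicate numbers did not pair all libraries by the check used. The block, where it was fitted, changed no further call of a member. Over all genes, labelled IL17RA-/- against WT in HFD tumours gave 0 to 1174 calls with 1 library left out, and rescaling moved the median of all genes most in the interaction of genotype and diet in tumours (0.17 as deposited, 0.02 rescaled) and in WT tumours by diet (-0.17 as deposited, -0.01 rescaled). Depth limits the members too, with 42.4% of their values at or under 3 counts.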

Other observations

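In WT on HFD, few lymphocyte genes outside the group of 10 were called between tumours and non-tumour liver by limma. Of tested genes, 2 of 16 of T cell receptor signalling and costimulation, 0 of 15 of NK and cytotoxic cells, 1 of 8 transcription factors, 1 of 8 cytokines and receptors, 1 of 6 inhibitory receptors and 0 of 11 chemokines and receptors rose, and 0 fell. Of all genes, 15.3% were called in this comparison, so these counts lie near or below the background. Those that rose were Cd27 (1.49 CPM in tumours and 0.188 CPM in non-tumour liver; 0.99 on the log2 scale, adjusted p = 0.0248), Thy1, a surface glycoprotein of T cells and fibroblasts (5.22 CPM in tumours and 1.61 CPM in non-tumour liver; 1.11, adjusted p = 0.0498), and Runx3, a transcription factor of cytotoxic T cells (2.86 CPM in tumours and 0.535 CPM in non-tumour liver; 1.24, adjusted p = 0.0465). Ltb had 11.01 CPM in tumours and 1.54 CPM in non-tumour liver (1.93, adjusted p = 0.0351), and Havcr2 had 6.05 CPM in tumours and 1.60 CPM in non-tumour liver (1.40, adjusted p = 0.0376). All 5 calls were lost without WT HFD tumour replicate 5 (adjusted p 0.195 to 0.337), non-tumour replicate 2 (0.0778 to 0.182) or non-tumour replicate 3 (0.0853 to 0.224), and those of Thy1, Ltb and Havcr2 also without tumour replicate 6 (0.0898 to 0.127). Those of Thy1, Runx3, Ltb and Havcr2 were also lost with a pseudocount of 0.1 (adjusted p 0.102 to 0.148) and without the filter (0.0505 to 0.0607). Limma-voom (0.051 to 0.127) and the compared groups alone (0.13 to 0.278) lost them too.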
